A study of Homo sapiens with 6 samples.

Results

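The genes described here lie on the long arm of human chromosome 5, in the stretch named 5q14 to q23, and were picked because neighbours there were lower together in NCI-H1650Re than in NCI-H1650. The list names 46 genes, and 45 of them have a row among the 12659 genes of the deposited FPKM values (fragment counts scaled to gene length and sequencing depth); FAM172A does not. In GENCODE release 29 (GRCh38) they start between 90.4 and 123.5 Mb, from CETN3 to CSNK1G3, a span of 33.1 Mb, with 23 on the plus strand and 22 on the minus strand. NCI-H1650 is an established human lung adenocarcinoma line, whose samples the labels call pre-LUAD. NCI-H1650Re is a derivative of it that they call post-SCLC, for a state after transformation to small cell lung cancer. The labels give NCI_H1650 as the cell line of both groups, and give no drug, dose, passage or clone for either. Polyadenylated RNA was sequenced in 3 libraries per line, 6 in all, and nothing states that these came from separate cultures, so every p-value below reflects how far these particular samples vary, perhaps only technically.

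Genes of one chromosome arm are gained or lost together when a tumour cell gains or loses that stretch, and losses on the long arm of chromosome 5 are common in small cell lung cancer. That is background: DNA was not analysed here. The listed genes have little else in common, and include subunits of RNA-processing and membrane-traffic machines, ubiquitin ligase adaptors, peptide-processing enzymes and signalling proteins. Since they were chosen for their fall in this same contrast, their values are given only as a description. Calls from a fit to all tested genes are quoted for them too, but are not read as support for a fall. In these bulk libraries, fewer cells expressing a gene and less RNA per cell cannot be told apart.

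The libraries differed somewhat in depth. Ratios of counts to FPKM in 131 of the 860 genes with deposited counts gave depth relative to NCI-H1650 replicate 1. It was lowest in NCI-H1650 replicate 3 (0.762), then NCI-H1650Re replicate 3 (0.811), and 0.868 to 0.967 in the rest. Total reads per library were not used here. Genes were tested where the mean was at least 1 FPKM in either line. All 6 epithelial markers looked up were tested, as were the neuroendocrine markers CHGA and SYP, with means of 0.563 and 1.23 FPKM in NCI-H1650 and 3.39 and 1.65 in NCI-H1650Re. The neuroendocrine factors NEUROD1 and INSM1, the tuft cell factor POU2F3, all 3 lung adenocarcinoma markers (NKX2-1, NAPSA and SFTPB), 3 leukocyte and 2 endothelial markers had no row. COL1A1, of 2 fibroblast markers, had 1.01 and 1.96 FPKM.

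The fall was broad but not uniform, and the label "lowered together" does not hold for every gene. Of the 45 genes, 43 had a lower mean in NCI-H1650Re and 2, SNX24 and POLR3G, a higher one. The median gene stood at 72.5% of its NCI-H1650 mean, with quartiles of 65.5% and 81.0%, whereas the median of all 11764 tested genes stood at 103%. On log2(FPKM + 1), a scale that shrinks differences between low values, the median difference between lines was -0.39 (quartiles -0.57 and -0.22), against 0.03 (quartiles -0.16 and 0.22) over all tested genes. The spread over the 45 genes, an interquartile range of 0.35, was close in size to the 0.38 over all tested genes. In all, 4 genes stood below 50% of their NCI-H1650 mean, 2 between 50 and 60%, 25 between 60 and 80%, 12 between 80 and 100%, and 2 above 100%.

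**Figure D1:**
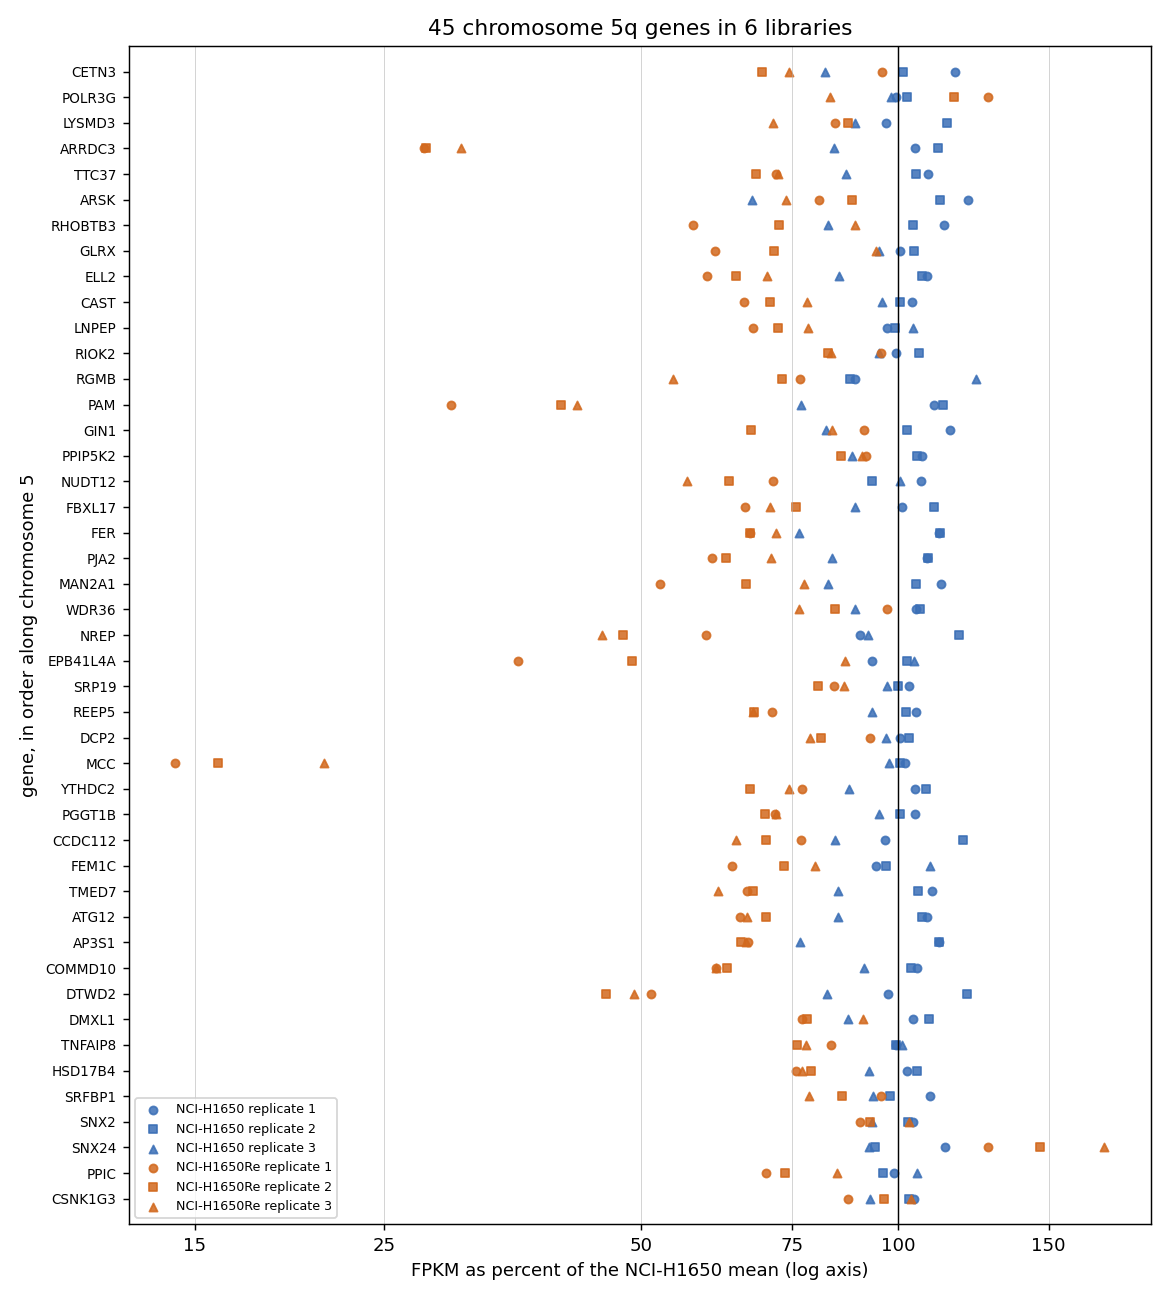
FPKM of each of the 45 genes in each library as a percentage of its NCI-H1650 mean, on a log axis, with genes in order along the chromosome and 1 point per library. Most NCI-H1650Re points lie between 60 and 90%, with MCC, ARRDC3 and PAM far to the left and SNX24 to the right, and the NCI-H1650 replicate 3 triangles lie left of the other NCI-H1650 points for most genes.

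For 32 of the 45 genes every NCI-H1650Re library was below every NCI-H1650 library, and for SNX24 every one was above; the other 12 overlapped. Over all tested genes 21.0% were lower without overlap, and 47.2% did not overlap in either direction. In limma, 26 of the 45 passed a Benjamini-Hochberg adjusted p of 0.05 as lower, 1 as higher, and 18 did not pass; over all tested genes 13.9% passed as lower and 16.6% as higher, 30.5% in all. As the list was built from this contrast, nothing is read from these counts. The count of 26 became 16 when replicate 2 of NCI-H1650 was left out and 17 when that of NCI-H1650Re was. The authors' deposited table marked 5 of the 45 as down and none as up, against 4.27% down and 2.53% up over all its 12659 genes, and its log2 fold changes had a median of -0.49 over the list.

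MCC, a cytoplasmic protein named for its mutation in colorectal cancers, showed the deepest fall. Its NCI-H1650 libraries, in the order of replicates 1, 2 and 3, read 8.87, 8.77 and 8.51 FPKM, and the NCI-H1650Re libraries read 1.24, 1.39 and 1.85. The lines were far apart and each was tight, with NCI-H1650Re at 17.1% of the NCI-H1650 mean (log2 difference -1.97, SE 0.10) on 208 to 1634 counts per library. ARRDC3, an alpha-arrestin that brings membrane receptors to ubiquitin ligases, was at 38.4, 40.8 and 30.9 FPKM against 10.2, 10.3 and 11.3, or 28.8%. PAM, the enzyme that amidates the ends of neuropeptides and peptide hormones, was the most abundant in NCI-H1650, at 137, 141 and 95.8 FPKM, and stood at 37.2, 50.2 and 52.3 in NCI-H1650Re, or 37.4%. NCI-H1650 replicate 3 was the lowest of its line for both ARRDC3 and PAM, yet still well above all NCI-H1650Re libraries.

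NREP, a small protein first described in regenerating neurons, was at 12.2, 15.9 and 12.5 FPKM against 8.05, 6.44 and 6.09, or 50.7% of its NCI-H1650 mean. EPB41L4A, a FERM domain protein, was at 8.44, 9.27 and 9.45 against 3.25, 4.41 and 7.84, or 57.1%. Its NCI-H1650Re libraries were spread widely, and replicate 3 came close to the NCI-H1650 range without entering it. DTWD2, a tRNA-modifying enzyme, stood at 48.6% (2.24 ± 0.429 against 1.09 ± 0.0656 FPKM, mean ± SD, n = 3 per line) and rested on only 87 to 228 counts per library.

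At the other end, SNX24, a sorting nexin, was higher in NCI-H1650Re. It was at 13.1, 10.8 and 10.7 FPKM in NCI-H1650 and 14.7, 16.9 and 20.1 in NCI-H1650Re, 149% of the NCI-H1650 mean, with no overlap. The span of SNX24 overlaps that of PPIC on the opposite strand, and the sources used here do not give whether counting used strand, so reads of the pair may not be separable. PPIC, a cyclophilin of the secretory pathway, went the other way: 64.4, 62.45 and 68.4 FPKM against 45.5, 48.01 and 55.2, or 76.2%. POLR3G, a subunit of RNA polymerase III, was at 5.21, 5.36 and 5.14 against 6.67, 6.08 and 4.36, so its NCI-H1650Re libraries fell on both sides of NCI-H1650.

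Besides POLR3G, the genes that differed least were CSNK1G3, SNX2 and PPIP5K2. CSNK1G3, a membrane-bound casein kinase 1 and the last gene, was at 7.80, 7.68 and 6.92 FPKM against 6.52, 7.18 and 7.72, or 95.6%. SNX2, a retromer-associated sorting nexin, was at 34.6, 34.1 and 30.9 against 29.9, 30.8 and 34.2, or 95.3%. CETN3, a centrin and the first gene of the list, was further down, at 10.25, 8.92 and 7.23 against 8.42, 6.10 and 6.55, or 79.8%. The lines overlapped for all 4 of CSNK1G3, SNX2, PPIP5K2 and CETN3.

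Calls are given by role below only as a description, because the genes were picked for their fall, and roles were not compared. Over all tested genes, 13.9% passed as lower. Among genes of RNA metabolism and ribosome assembly, 7 of 8 were lower and 4 passed as lower (median 78.6% of the NCI-H1650 mean). TTC37, the scaffold of the SKI complex that feeds RNA to the exosome, was at 25.3, 24.5 and 20.2 FPKM against 16.8, 15.9 and 16.9, with no overlap. The elongation factor ELL2 stood at 64.8%, and YTHDC2, an RNA helicase that reads methylated adenosine, at 72.9%. The decapping enzyme DCP2 (84.2%), the small-subunit assembly kinase RIOK2 (87.2%) and the processome subunit WDR36 (85.9%) did not pass.

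The membrane-traffic and organelle genes were lower in 10 of 11 cases, with 7 passing as lower (median 68.8%). AP3S1, the small subunit of the AP-3 adaptor of lysosome-related transport, was at 125.05, 124.92 and 86.0 FPKM in NCI-H1650 and at 74.6, 73.3 and 74.4 in NCI-H1650Re. Its NCI-H1650Re values varied little, while NCI-H1650 replicate 3 lay nearer to them than to the other NCI-H1650 libraries. TMED7, a p24 cargo receptor, was at 55.9, 53.8 and 43.3 against 33.9, 34.5 and 31.4. ATG12, the ubiquitin-like conjugate of autophagosome formation, was at 10.9, 10.7 and 8.55 against 6.56, 7.03 and 6.68. COMMD10, a Commander subunit, stood at 61.9%, the Golgi mannosidase MAN2A1 at 65.5%, the endoplasmic reticulum shaping protein REEP5 at 68.8% and SRP19 of the signal recognition particle at 83.6%. RHOBTB3, a Golgi-associated protein (73.0%), and DMXL1, a regulator of proton pump assembly (82.1%), did not pass, and each had an NCI-H1650Re library above NCI-H1650 replicate 3.

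Ubiquitin ligase components and adaptors were all lower and all 4 passed, again a count from genes picked for their fall. Over all tested genes 13.9% passed as lower. Besides ARRDC3, the F-box protein FBXL17 stood at 71.0%, the ligase PJA2 at 64.8% and the cullin-2 substrate receptor FEM1C at 72.5%. Of 6 genes for peptidases, protein modification and folding, 5 passed as lower. CAST, the inhibitor of calpains, was at 92.5, 89.6 and 85.4 FPKM against 58.9, 63.1 and 69.7. The aminopeptidase LNPEP stood at 72.8% and the prenyltransferase subunit PGGT1B at 71.1%. ARSK, a sulfatase, was at 2.83, 2.62 and 1.58 against 1.89, 2.07 and 1.73, and its lines overlapped.

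The signalling genes were all lower on the mean, but only MCC and the tyrosine kinase FER (68.7%) passed. RGMB, a BMP co-receptor, stood at 68.1%, TNFAIP8, a regulator of cell death, at 79.2% and PPIP5K2, an inositol pyrophosphate kinase, at 89.3%. The redox and lipid enzymes NUDT12, a NADH hydrolase of peroxisomes (63.7%), and HSD17B4, of peroxisomal beta-oxidation (77.4%), passed as lower, and the glutaredoxin GLRX (75.6%) did not. Of the less characterised genes, NREP and EPB41L4A passed, and LYSMD3 (81.0%), GIN1 (80.7%), CCDC112 (70.5%), SRFBP1 (86.6%) and CETN3 did not. The 26 genes under 10 FPKM in NCI-H1650 stood at a median of 79.5% and the 19 at or above it at 67.3%.

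The shift was present in every pairing of an NCI-H1650Re with an NCI-H1650 library, but its size depended on the NCI-H1650 library. Against NCI-H1650 replicates 1 and 2, the median log2 difference of the 45 genes was between -0.40 and -0.45 in all 6 pairs, with 42 to 44 genes lower. Against NCI-H1650 replicate 3 it was -0.28, -0.26 and -0.24, with 36, 41 and 37 genes lower. Over all tested genes the median was 0.01 to 0.06 in the 9 pairs. Within NCI-H1650, replicate 3 lay below the mean of the other 2 libraries for 38 of the 45 genes, with a median difference of -0.18, whereas over all tested genes it lay below for 53.5%, with a median of -0.02. The same deviation was -0.10 over the tested genes further along the long arm, -0.10 over those before the interval and -0.06 over the short arm, so it was not limited to the listed genes. Within NCI-H1650Re the same medians were -0.003, -0.03 and 0.03 for replicates 1, 2 and 3.

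**Figure D2:**
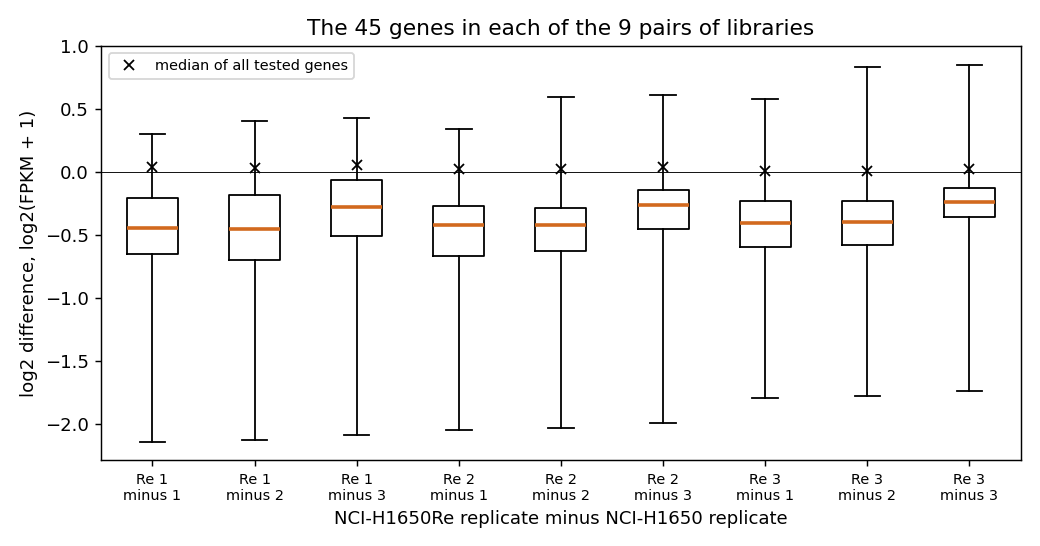
Log2 differences of the 45 genes in each of the 9 pairs of an NCI-H1650Re and an NCI-H1650 library; boxes span the quartiles with the median in orange, whiskers reach the lowest and highest gene, and crosses mark the median of all tested genes. The medians lie between -0.40 and -0.45 against NCI-H1650 replicates 1 and 2 and between -0.24 and -0.28 against replicate 3, while the crosses stay near 0.

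Adjacent genes that share a start region gave the closest view of how alike neighbours were. Start sites on opposite strands lay within 1 kb of each other for 3 pairs of listed genes in GENCODE, at distances of 67, 2 and 377 bases. ATG12 and AP3S1 had nearly the same log2 difference (-0.50 and -0.57). GIN1 (1.83, 1.63 and 1.31 FPKM against 1.45, 1.07 and 1.33) and PPIP5K2 (4.06, 4 and 3.36 against 3.49, 3.26 and 3.45) were both little different, at -0.18 and -0.12, and their lines overlapped. TTC37 and ARSK were at -0.47 and -0.19; the lines were apart for TTC37 and overlapped for ARSK. GIN1 overlaps PPIP5K2, and ATG12 overlaps AP3S1, on opposite strands, as do spans of 14 of the 45 genes with some protein-coding gene, with the same limit on counting as for SNX24.

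The bases between RefSeq starts of these pairs (GRCh38.p14, plus strand, 5′ to 3′) are shown beside the 250 bases before the start of SNX24, the gene that was higher. Both genes of a pair are read outward from the RefSeq starts used. By their GENCODE starts, GIN1 and PPIP5K2 overlap instead, as do ATG12 and AP3S1. For ATG12 and AP3S1 the bases shown are the 250 of 369 nearest AP3S1, which has further RefSeq starts. Capitals mark matches, on either strand, to 5 motifs, none of which contains another. The GC box was searched for by the letters GGGCGG. The box bound by NF-Y, known by its letters, was searched for as CCAAT. For the box bound by the TATA-binding protein, the letters were TATAAA. Sites of the ETS family were searched for by the letters CCGGAAG, and the palindromic NRF1 site is given by name.
TTC37 and ARSK, chr5:95554978-95555100: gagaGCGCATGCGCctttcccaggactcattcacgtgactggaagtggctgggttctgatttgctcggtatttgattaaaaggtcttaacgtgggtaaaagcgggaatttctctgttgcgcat
GIN1 and PPIP5K2, chr5:103120139-103120300: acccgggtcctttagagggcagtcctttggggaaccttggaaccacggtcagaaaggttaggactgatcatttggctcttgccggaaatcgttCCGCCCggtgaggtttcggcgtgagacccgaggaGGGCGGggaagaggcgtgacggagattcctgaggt
ATG12 and AP3S1, chr5:115841685-115841934: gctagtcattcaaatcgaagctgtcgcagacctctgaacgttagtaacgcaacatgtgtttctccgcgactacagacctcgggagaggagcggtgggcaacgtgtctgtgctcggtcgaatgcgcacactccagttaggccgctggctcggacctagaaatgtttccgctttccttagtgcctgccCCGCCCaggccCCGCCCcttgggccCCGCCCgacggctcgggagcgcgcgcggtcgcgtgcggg
SNX24, chr5:122845363-122845612: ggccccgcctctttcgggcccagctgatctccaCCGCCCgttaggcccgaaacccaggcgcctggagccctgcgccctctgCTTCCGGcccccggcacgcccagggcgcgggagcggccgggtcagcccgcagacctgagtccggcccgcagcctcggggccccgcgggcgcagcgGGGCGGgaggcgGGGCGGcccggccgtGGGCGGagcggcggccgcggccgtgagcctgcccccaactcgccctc

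The start regions differed from pair to pair. The TTC37 and ARSK stretch held 1 NRF1 match and no GC box, that of GIN1 and PPIP5K2 held 2 GC boxes, that of ATG12 and AP3S1 held 3, and the SNX24 stretch held 4 GC boxes and 1 ETS match. Over 300-base RefSeq promoter windows, found for 41 of the 45 genes, a GC box was in 68.3% of the listed genes and in 44.6% of all 27305 genes, noncoding ones included. The CCAAT box was in 36.6% and 35.7%, the TATA box in 7.32% and 11.95%, the ETS site in 21.95% and 10.7% and the NRF1 site in 4.88% and 1.36%. Median GC content was 60% and 58.3%, but the median number of CG steps (C followed by G) per window was 26 and 14. The listed genes were all protein-coding and tested, whereas the 27305 also held genes not tested here. The GC box, ETS and NRF1 letters all contain CG, and the shares were not adjusted for it. These are matches to letters, not measured sites.

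Neighbours that the list leaves out behaved much as its members did. The interval from CETN3 to CSNK1G3 holds 19 further genes with a row, 16 of them tested. Their median log2 difference was -0.39, the same as that of the list. In limma, 10 passed as lower (62.5%), 1 as higher (6.25%) and 5 did not pass. Over all tested genes, 13.9% passed as lower and 16.6% as higher. The nuclear receptor NR2F1 was at 6.79, 8.03 and 7.92 FPKM against 1.56, 2.62 and 2.59, and LOX, a collagen cross-linking enzyme, at 6.98, 6.90 and 4.60 against 0.630, 1.83 and 0.840. C5orf30 stood at 42.4%, the peptidase ERAP2 at 48.4%, the ligase TRIM36 at 50%, POU5F2 at 63.0%, FAM174A at 65.1%, the ephrin EFNA5 at 69.0%, SLF1 at 73.1% and the mitochondrial carrier SLC25A46 at 77.8%. MBLAC2 (76.5%), the lipid transfer protein STARD4 (83.5%), the peptidase ERAP1 (84.2%), the remodeller CHD1 (85.6%) and the centrosomal CEP120 (98.6%) did not pass. PRR16 went the opposite way, from 4.15, 3.56 and 2.22 to 6.01, 7.59 and 9.60 FPKM. The interval was itself chosen from this contrast, so these values are a description too.

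Along the chromosome the lower values did not stop where the list stops. On the long arm after CSNK1G3, 112 of 249 tested genes (44.98%) fell in limma at an adjusted p of 0.05, 12 rose and 125 did not pass, with a median log2 difference of -0.24 (83.0% of the NCI-H1650 mean). Before CETN3 on the long arm, 14 of 107 fell (13.1%) and 20 rose, with a median of 0.06, and on the short arm 9 of 85 fell (10.6%) and 13 rose, with a median of 0.07. Over all tested genes 13.9% fell and 16.6% rose, so the pooled shares that fell before the interval were near the background and the share after it was above it. The stretch right before the interval differed from the rest: between 80 and 90 Mb, 6 of 16 tested genes fell (37.5%) and none rose. In steps of 10 Mb the median was 0.07 between 70 and 80 Mb, -0.14 between 80 and 90 Mb, -0.34, -0.48 and -0.40 in the next 3 steps, -0.30 between 120 and 130 Mb, and between -0.14 and -0.30 in each step from there to the end of the arm. Among the last genes before CETN3, TMEM161B stood at 68.6%, RASA1, a Ras GTPase activating protein, at 68.6%, the respiratory subunit COX7C at 62.7% and TMEM167A at 67.1% of the NCI-H1650 mean, whereas CCNH (109%) and XRCC4 (98.6%) did not pass.

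**Figure D3:**
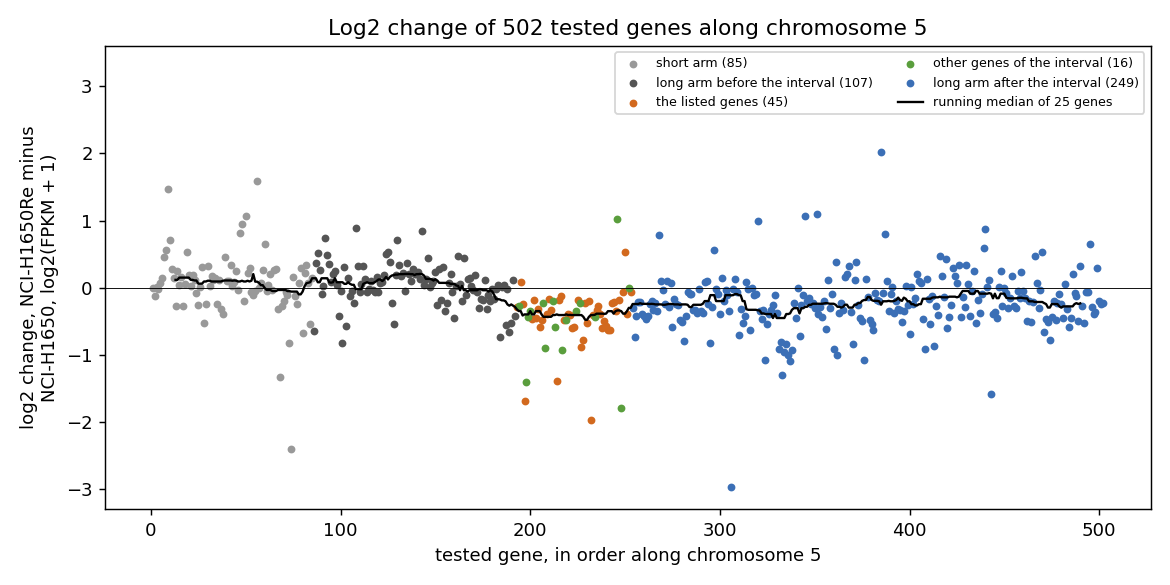
Log2 change of FPKM + 1 between the lines, positive where NCI-H1650Re is higher, for each of 502 tested chromosome 5 genes in order along the chromosome, coloured by segment, with a running median of 25 genes as a line. The line lies near or above 0 up to shortly before the listed genes, is below 0 over them and over most of the 249 genes after them, where it comes about as low again.

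Many of the listed genes encode 1 subunit or family member among several, so the partners encoded elsewhere were examined; the rule for the list did not use them. Of 169 partner genes in 28 complexes and families, 153 were tested, and 24 rose (15.7%), 20 fell (13.1%) and 109 did not pass in limma (Benjamini-Hochberg adjusted p of 0.05). These shares were near the 16.6% and 13.9% of all tested genes, and the partners' median log2 difference, 0.03, was close to the 0.03 of all tested genes. The counts depended on single libraries: with 1 NCI-H1650 library left out, the 24 that rose became 14 (replicate 1) or 8 (replicate 2), and with 1 NCI-H1650Re library left out, 15 (replicate 1) or 9 (replicate 2). The 20 that fell became 13 when replicate 2 of either line was left out. None of the 3 tested SKI partners of TTC37, the 4 members of the calpain system beside CAST or the 6 peroxisomal enzymes beside HSD17B4 passed. Of 6 tested partners on chromosome 5 outside the interval, TMED9, CSNK1A1 and MGAT1 fell and none rose.

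**Figure D4:**
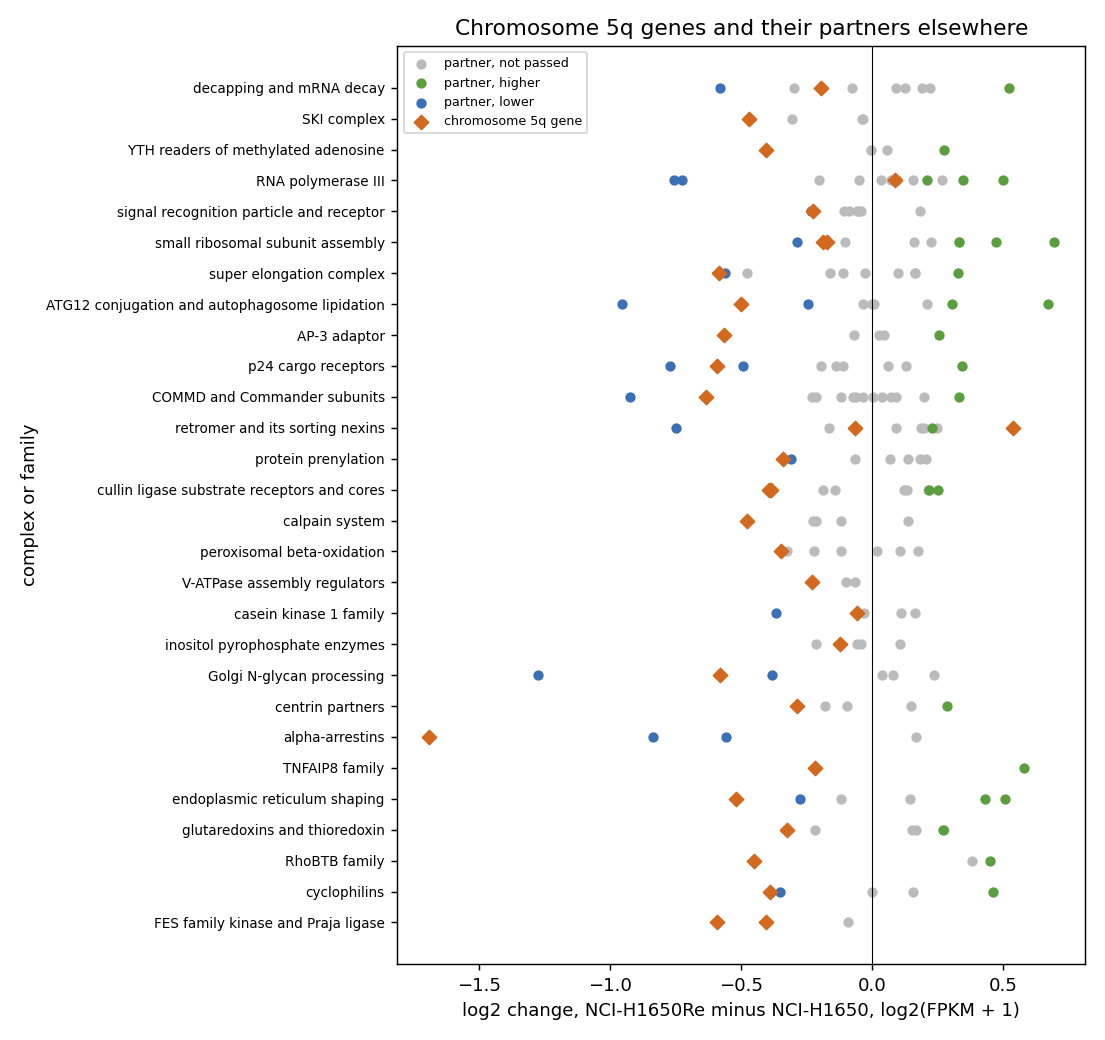
Log2 change of FPKM + 1, positive where NCI-H1650Re is higher, for tested partner genes as circles, coloured by limma call, and of the listed 5q genes as diamonds, with 1 row per complex or family. Partners spread on both sides of 0, with 24 that rose and 20 that fell.

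Of 40 partners named by rule, 20 passed under every setting in which they were tested. The other 20 lost their call under at least 1 setting and are given only as a count, apart from TXNIP, MAP1LC3B, REEP6 and PPIB. Of the autophagy partners of ATG12, GABARAPL2, an ATG8 family protein, fell from 68.5 ± 1.52 to 34.9 ± 0.828 FPKM (mean ± SD, n = 3; log2 change -0.95, SE 0.06, limma adjusted p = 0.000181). Of Commander subunits VPS35L fell from 24.3 ± 2.13 to 12.3 ± 0.657, and of retromer VPS35 fell from 37.4 ± 2.28 to 21.8 ± 0.221, both with limma adjusted p = 0.000493. Of p24 receptors TMED9 fell from 323 ± 22.8 to 188 ± 14.9 and TMED3 from 15.9 ± 1.07 to 10.997 ± 0.694. RNA polymerase III subunits went both ways: POLR3K fell from 29.9 ± 3.70 to 17.4 ± 2.89 and POLR3E from 11.5 ± 0.772 to 6.56 ± 0.276, while POLR3F rose from 4.36 ± 0.421 to 6.56 ± 0.424.

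In small-subunit assembly PNO1 rose from 16.3 ± 0.340 to 27.0 ± 2.59 FPKM and UTP6 from 8.497 ± 0.175 to 12.2 ± 0.910. Of the 8 partners tested there, 3 rose and 1 fell. That was NOB1, from 47.4 ± 3.63 to 38.7 ± 2.70 FPKM (limma adjusted p = 0.0338). The listed RIOK2 and WDR36 had lower means but did not pass. In decapping EDC4 fell (log2 change -0.58) and DCP1B rose (0.52). The Golgi mannosidase MAN1A1 fell from 1.57 ± 0.214 to 0.0600 ± 0.0557 and the glycosyltransferase MGAT1 from 22.9 ± 0.802 to 17.3 ± 0.964. REEP4 (0.51), ATL2 (0.43), RHOBTB2 (0.45) and the cyclophilin PPID (0.46) rose, and MLLT3 (-0.56) and CSNK1A1 (-0.37) fell. The listed REEP5, RHOBTB3 and PPIC had lower means. Relatives of REEP5 and PPIC went both ways, as REEP6 (-0.28) and the cyclophilin PPIB (-0.35) also fell. Their limma adjusted p was 0.0489 and 0.0129, and each lost its call under some settings. Of the alpha-arrestins beside ARRDC3, TXNIP fell from 20.4 ± 1.80 to 11.3 ± 3.62, with limma adjusted p = 0.0139, and 0.0573 without NCI-H1650Re replicate 2. Limma adjusted p over all 20 stable calls ran from 0.000181 for GABARAPL2 to 0.00967 for PPID.

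Most tested partners on chromosome 16 fell, a point noticed after their values were seen. Others that fell lay elsewhere, among them 4 of 12 tested on chromosome 15 and 3 of 6 on chromosome 5. Of 9 tested partners on chromosome 16, 7 fell, among them EDC4, POLR3E, POLR3K, GABARAPL2, VPS35L and VPS35. MAP1LC3B, another ATG8 family protein, rose there by 0.67 on the log2 scale (limma adjusted p = 0.0217). Its limma adjusted p was 0.0662 when replicate 1 of NCI-H1650 was left out, 0.0852 when replicate 2 was, and 0.0821 when replicate 2 of NCI-H1650Re was. On that chromosome 231 of 516 tested genes (44.8%) fell, against 13.9% of all tested genes.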

How the data were processed

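Polyadenylated RNA of 3 NCI-H1650 and 3 NCI-H1650Re libraries was measured. The authors deposited FPKM and their own log2 fold change per gene, and read counts for the 860 genes they marked as changed; HISAT2, Bowtie2, RSEM and DESeq2 are named in the submitters' processing notes, without versions. The build in those notes is mm10, of mouse, but the gene IDs are human; no human build is named, so positions come from GENCODE release 29 (GRCh38) by Ensembl ID and promoter sequences from RefSeq (GRCh38.p14) by symbol. The deposited counts cover only marked genes, so no count test was run on the list.

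Values were taken as log2(FPKM + 1), genes were kept where 1 or both line means reached 1 FPKM, and NCI-H1650Re minus NCI-H1650 was fitted across all 11764 genes with limma 3.58.1 in R 4.3.3, with a mean-variance trend and Benjamini-Hochberg adjustment at 0.05. The 46 genes, the partner lists and the tests were chosen with earlier results of these data known. Genes named with values in every library were the 5 most abundant, the 5 with the most negative and the 5 with the least negative difference, the first and last, and pairs whose starts lie within 1 kb on opposite strands; the other listed genes were named with their means. Alternatives were other pseudocounts, filters, scaling, a replicate block and leaving out each library.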

Additional observations from a re-analysis of the deposited data

How the results depend on the processing

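The median log2 difference of the 45 genes ran from -0.43 to -0.35 when each library was left out. It was -0.46 with a pseudocount of 0.1 FPKM and -0.47 with 0.01 FPKM. In every setting 43 of 45 were lower, except a filter at 5 FPKM (30 of 32) and without NCI-H1650Re replicate 1 (44 of 45). Leaving out each library gave 16 to 28 listed genes past the threshold as lower, 8 to 30 partners that rose and 13 to 25 that fell. The median of the other genes of the interval moved from -0.39 to -0.49 with a pseudocount of 0.1 FPKM, -0.50 with 0.01 FPKM and -0.48 with the filter at 5 FPKM, where fewer genes were tested; the cause was not tested for the pseudocounts. Without both libraries numbered 3, an alternative chosen after seeing the data, 30 listed genes and 32 and 30 partners passed, and the median of the list was -0.42. Same-numbered libraries of the lines correlated in their deviations at 0.17, -0.04 and 0.21, so the numbers were not taken to pair them; a replicate block gave 23 listed genes past the threshold and 20 partners that rose and 18 that fell. No difference past the threshold changed sign; POLR3G, which did not pass, went from 0.09 to -0.02 without NCI-H1650Re replicate 1. Low FPKM limits GIN1, CCDC112, ARSK and DTWD2, and total depth is not known.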
